A study of Mus musculus with 4 samples.

Results

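The genes described here encode the core of T cell receptor signalling: the CD3 chains (Cd3e, Cd3d, Cd3g), the zeta chain (Cd247), the kinases Lck and Zap70, the adaptors Lat and Lcp2 (SLP-76), and the phospholipase Plcg1. They are 9 of the 31053 genes in the files and were taken by symbol, not by any measured value. In a T cell, the receptor that binds antigen has no signalling tail of its own, and the CD3 and zeta chains carry the tyrosine motifs that pass the signal on. Lck phosphorylates these motifs, Zap70 docks on them and phosphorylates Lat and SLP-76, and the complex that forms there brings in phospholipase C-gamma-1, which starts the calcium and diacylglycerol signals. Natural killer (NK) cells have no T cell receptor but use the zeta chain, Fc receptor gamma (Fcer1g) and DAP12 (Tyrobp) with the same kinds of kinases.

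The study examined lung immune cells of C57BL/6 mice with floxed Ift20 alleles. WT mice carried Ift20 f/f alone, and KO mice carried Ift20 f/f with CD4 cre, a driver that is active in developing T cells, so CD8 T cells recombine as well as CD4 T cells. Each genotype received either DPBS, a buffered saline, or papain, a protease allergen given into the nose at 25 µg on 3 days, again on day 14, with lungs taken on day 15. Live CD45.2+ cells were sorted and 1 single-cell 3′ library was made for each group, which are called DPBS WT, DPBS KO, Papain WT, Papain KO. The labels give neither the age nor the number of the mice behind a library.

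The libraries held 5863 to 8552 barcodes and 53854420 to 75675956 unique molecular identifiers (UMIs), and 5421 to 7559 cells were kept, with a median of 5842 to 6680 UMIs per cell. Each pair of libraries shared 7 to 16 barcode sequences. Levels are given in counts per 1000000 UMIs of a gate (CPM), and runs of 4 values follow the library order DPBS WT, DPBS KO, Papain WT, Papain KO. Ift20, the targeted gene, stood at 61.1, 21.9, 62.2 and 19.0 CPM in CD4 T cells, and at 53.5, 16.1, 54.2 and 15.97 CPM in CD8 T cells. In NK cells, where the driver should be silent, Ift20 was at 113, 112, 125 and 108. The recombined part of Ift20 is internal to the gene and a 3′ library counts transcript ends, so these UMIs do not measure the deletion itself. With 1 library per group, a difference between libraries could not be set against a spread between mice. Values in brackets are 95% intervals and cover counting error only.

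Cells were gated on raw UMIs without using any of the 9 genes. CD4 T cells had T cell receptor constant region UMIs and Cd4 without Cd8, CD8 T cells had them with Cd8b1 and without Cd4, gamma-delta T cells had Trdc and a gamma chain gene without Trac, and NK cells had Ncr1 and another NK gene without Trac, Trdc, Cd4 or Cd8b1. The CD4 T gate held 758, 465, 930 and 542 cells in library order, and the CD8 T gate 1067, 649, 652 and 758. The gamma-delta T gate was small, with 29, 25, 34 and 19 cells, as was the NK gate, with 79, 33, 29 and 39. Group 2 innate lymphoid cells (ILC2), which share many genes with T helper cells but carry no antigen receptor, were gated on Il1rl1, Gata3 and another ILC2 gene without Trac and numbered 36, 24, 58 and 46. B cells, alveolar macrophages and neutrophils served as background.

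Markers that the gates did not use followed the gate names. Cd28, a T cell costimulatory receptor, had a median over the libraries of 384 CPM in CD4 T cells, 242 in CD8 T cells and 123 in NK cells. Klrk1, an NK receptor, was at 916 in NK cells and 6.85 in CD4 T cells, and Tyrobp was at 2965 and 32.5. In ILC2 Cd28 was at 13.2 and Il7r, the interleukin-7 receptor of T cells and ILC2, at 642. Cd163l1, typical of gamma-delta T cells, was at 136 in that gate and 0.405 in CD4 T cells. Free RNA was low but present: Igkc, an antibody light chain, was at 15650 in B cells and 46.8 in CD4 T cells.

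Cd3e, Cd3d and Cd3g lie side by side on chromosome 9, within 40056 bp (GRCm38, GENCODE M21). Cd3g runs from 44969572 to 44980431 on the minus strand, Cd3d from 44981786 to 44987339 on the plus strand and Cd3e from 44998740 to 45009627 on the minus strand. The starts of Cd3g and Cd3d are 1355 bp apart and point away from each other. Their promoters are shown because, in ILC2, Cd3g was detected at a high level while Cd3d and Cd3e were almost absent, as described with those genes. The sequences are the 250 bases before each start in RefSeq (GRCm38.p6), 5′ to 3′ on the strand of the gene, with matches to 4 motifs in capitals.
Cd3g, chr9:44980432-44980681, minus strand: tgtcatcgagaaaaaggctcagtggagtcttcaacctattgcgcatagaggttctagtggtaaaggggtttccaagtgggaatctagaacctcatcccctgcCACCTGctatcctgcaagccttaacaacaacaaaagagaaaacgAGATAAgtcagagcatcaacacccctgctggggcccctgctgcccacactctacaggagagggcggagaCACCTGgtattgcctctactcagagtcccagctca
Cd3d, chr9:44981536-44981785, plus strand: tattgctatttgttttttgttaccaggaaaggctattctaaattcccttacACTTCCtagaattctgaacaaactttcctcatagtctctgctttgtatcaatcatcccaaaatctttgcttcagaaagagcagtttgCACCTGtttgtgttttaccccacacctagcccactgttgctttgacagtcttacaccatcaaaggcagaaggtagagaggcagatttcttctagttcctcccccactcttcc
Cd3e, chr9:45009612-45009861, minus strand: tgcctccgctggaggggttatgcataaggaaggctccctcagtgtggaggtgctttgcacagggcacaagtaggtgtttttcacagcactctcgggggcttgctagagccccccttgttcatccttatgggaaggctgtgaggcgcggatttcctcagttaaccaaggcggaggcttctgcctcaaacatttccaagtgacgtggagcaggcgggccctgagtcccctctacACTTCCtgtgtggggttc

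The motifs were searched on both strands: the RUNX core TGTGGT, the E-box CAGNTG, the GATA site AGATAA and the ETS site GGAAGT. No motif contains another. The Cd3g promoter held 2 E-boxes and 1 GATA site, the Cd3d promoter 1 E-box and 1 ETS site, and the Cd3e promoter 1 ETS site. Of 32851 promoters of the same length, 44.8% held an E-box, 9.99% the GATA site, 19.7% the ETS site and 14.0% the RUNX core, which is in none of the 3 windows. A match is a match of letters and no evidence of binding.

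**Figure D1:**
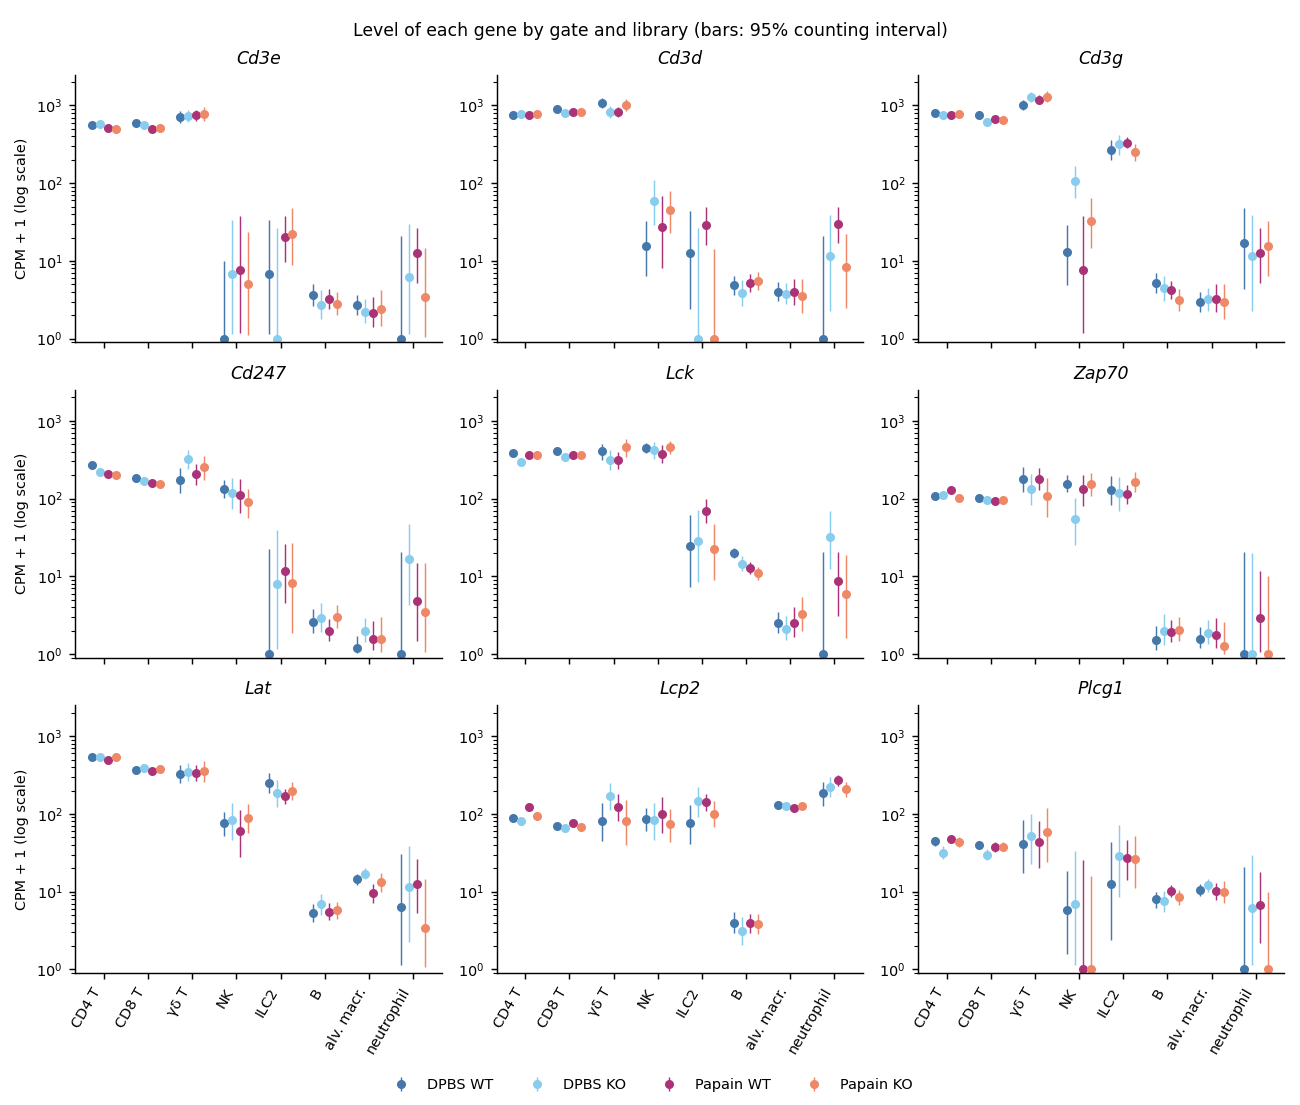
Level of each of the 9 genes in CPM plus 1 (log scale, y axis) in 8 cell gates (x axis), with 1 point for each of the 4 libraries. Plcg1 had its lowest median in NK cells, Lck in NK cells overlapped the T cells, and Cd3g in ILC2 lay between 250 and 333.

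Cd3e encodes the epsilon chain, which can pair with the delta chain or the gamma chain of CD3. Cd3e stood at 554 (534 to 574), 574, 515 and 499 CPM in CD4 T cells. CD8 T cells had Cd3e levels of 588, 568, 492 and 506, and gamma-delta T cells 720, 734, 747 and 779. The CD4 and CD8 ranges overlapped, both papain libraries were below both DPBS libraries in each of them, and every gamma-delta value was above them. NK cells had 0, 1, 1 and 1 Cd3e UMIs, that is 0, 5.88, 6.56 and 4.01 CPM, where 3 UMIs would have been 7.24 in DPBS WT. Against CD4 T cells of the same library Cd3e was at least 76.5-fold lower in NK cells of DPBS WT, and 97.6-fold (17.5 to 3856), 78.6-fold (14.1 to 3105) and 124-fold (22.3 to 4913) lower in the others. ILC2 had 1, 0, 9 and 6 Cd3e UMIs, or 5.86, 0, 19.3 and 21.4 CPM. B cells, a background for free RNA, ranged from 1.72 to 2.61.

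Cd3d encodes the delta chain, which pairs with the epsilon chain. Cd3d was at 763, 783, 747 and 772 CPM in CD4 T cells. In CD8 T cells Cd3d was at 891, 809, 821 and 815, above every CD4 value, and in gamma-delta T cells at 1083, 829, 832 and 1022, overlapping the CD8 range. NK cells had 6, 10, 4 and 11 Cd3d UMIs, or 14.5, 58.8, 26.2 and 44.1 CPM, which is 52.7-fold, 13.3-fold, 28.5-fold and 17.5-fold below CD4 T cells of the same library. These levels were above the 2.87 to 4.50 of B cells. Neutrophils, also a background, ranged from 0 to 28.9 and overlapped the NK cells. ILC2 had 2, 0, 13 and 0 Cd3d UMIs, or 11.7, 0, 27.9 and 0 CPM. In the libraries without a UMI, 3 UMIs would have been 20.6 CPM in DPBS KO and 10.7 in Papain KO. The 13 UMIs of Papain WT came from 5 of its 58 ILC2, with up to 6 in 1 cell.

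Cd3g encodes the gamma chain of CD3, not to be confused with the gamma chain of the gamma-delta receptor. Cd3g stood at 792, 750, 762 and 768 CPM in CD4 T cells. In CPM, CD8 T cells held less Cd3g, at 744, 613, 660 and 646, and gamma-delta T cells more, at 1019, 1291, 1189 and 1298. In the fit between gates given below, the log2 fold of Cd3g in CD8 against CD4 T cells was -0.04 and was not called. The 3 CPM ranges did not overlap one another. In NK cells Cd3g had 5, 18, 1 and 8 UMIs, or 12.1, 106, 6.56 and 32.1 CPM, which is 65.7-fold, 7.08-fold, 116-fold (20.8 to 4588) and 23.9-fold below CD4 T cells of the same library. The 18 UMIs of DPBS KO came from 5 of its 33 NK cells, with up to 7 in 1 cell, and the 8 UMIs of Papain KO from 2 cells.

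Cd3g was the exception among the CD3 genes in ILC2. It stood there at 269, 316, 333 and 250 CPM, from 46, 46, 155 and 70 UMIs, which is 2.94-fold, 2.37-fold, 2.29-fold and 3.08-fold below CD4 T cells of the same library. Cd3e in the same cells was 94.5-fold (17.0 to 3735) lower than in CD4 T cells in DPBS WT, at least 27.8-fold lower in DPBS KO, and 26.7-fold and 23.3-fold lower in Papain WT and Papain KO. A Cd3g UMI was present in 41.7% (25.5 to 59.2), 41.7%, 55.2% and 37.0% of ILC2, that is 15, 10, 32 and 17 cells. A Cd3e UMI was present in 2.78%, 0%, 5.17% and 6.52% of them. In B cells, at a median depth of 3940 to 4860.5 UMIs against 5046.5 to 6356.5 in ILC2, the share with a Cd3g UMI was 1.08% to 1.95%. After thinning every cell to 2000 UMIs, 24.4% to 32.8% of ILC2 still had Cd3g. ILC2 were added to a fit between gates after these levels had been seen, so its p-values do not test a pattern set in advance. In that fit, with the library as a block (edgeR quasi-likelihood test, Benjamini-Hochberg adjusted), Cd3g was higher in ILC2 than in NK cells by 3.40 ± 0.31 on the log2 scale (SE, 4 libraries, adjusted p = 2.77e-09). Cd3g was lower than in CD4 T cells by a log2 fold of -1.40 ± 0.18 (adjusted p = 6.74e-07). It was above NK cells in 4 of 4 libraries and kept both calls without any 1 library and with totals in place of TMM factors.

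Cd247 encodes the zeta chain, a signalling dimer that NK receptors use too. It sits on the plus strand of chromosome 1, from 165788681 to 165877277. Cd247 was at 269, 218, 207 and 198 CPM in CD4 T cells. In CD8 T cells Cd247 was at 183, 170, 160 and 154, and in gamma-delta T cells at 173, 323, 207 and 251. The CD8 range lay below the CD4 range, which the gamma-delta range overlapped. NK cells had Cd247 levels of 133, 118, 111 and 88.3, below all T cell values but far above the 1.00 to 2.01 of B cells. In ILC2 Cd247 was at 0, 6.90, 10.7 and 7.14, so the zeta chain was nearly absent where Cd3g was present.

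Lck, the Src family kinase bound to CD4 and CD8, sits on the minus strand of chromosome 4, from 129548344 to 129573641. Lck stood at 389, 295, 361 and 361 CPM in CD4 T cells, at 404, 342, 363 and 363 in CD8 T cells, and at 403, 316, 310 and 454 in gamma-delta T cells. NK cells had 446, 418, 374 and 457. All 4 ranges overlapped, and the lowest values of CD4 and CD8 T cells were both in DPBS KO. In ILC2 Lck was at 23.4, 27.5, 68.7 and 21.4, from 4, 4, 32 and 6 UMIs, which is 16.6-fold, 10.7-fold, 5.26-fold and 16.8-fold below CD4 T cells. B cells were at 9.95 to 18.9.

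Zap70, the kinase that docks on phosphorylated CD3 and zeta chains, sits on the plus strand of chromosome 1, from 36761798 to 36782818. Zap70 was at 108, 111, 130 and 102 CPM in CD4 T cells, at 102, 96.2, 92.3 and 93.8 in CD8 T cells, and at 179, 133, 179 and 105 in gamma-delta T cells. NK cells had 154, 52.9, 131 and 152, the low value of DPBS KO resting on 9 UMIs. ILC2 had 129, 117, 114 and 164. Apart from the NK cells of DPBS KO, every NK and ILC2 value was above the highest CD8 value, and the ranges of all 5 gates otherwise overlapped from neighbour to neighbour. B cells were at 0.496 to 1.07.

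Lat, the membrane adaptor that Zap70 phosphorylates, sits on the minus strand of chromosome 7, from 126363824 to 126369570. Lat stood at 538, 533, 498 and 532 CPM in CD4 T cells. CD8 T cells had less Lat, at 369, 385, 352 and 381, and gamma-delta T cells had 328, 348, 338 and 357. ILC2 followed at 252, 186, 170 and 196 and NK cells at 74.8, 82.4, 59.0 and 88.3. Only the CD8 and gamma-delta ranges overlapped. B cells were at 4.34 to 5.92.

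Lcp2 encodes SLP-76, the cytosolic adaptor that joins Lat, and platelets and myeloid cells use it too. It sits on the plus strand of chromosome 11, from 34046920 to 34092295. Lcp2 was at 87.5, 80.0, 121 and 94.0 CPM in CD4 T cells, at 69.1, 65.8, 75.6 and 67.8 in CD8 T cells, at 80.6, 171, 122 and 81.1 in gamma-delta T cells and at 84.4, 82.4, 98.4 and 72.2 in NK cells. Lcp2 was not restricted to lymphoid gates: neutrophils ranged from 182 to 270, above every T cell value, and alveolar macrophages from 120 to 129, while B cells were at 2.10 to 2.98. Among the T cells, Papain WT was the highest CD4 and CD8 library.

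Plcg1 encodes phospholipase C-gamma-1 and sits on the plus strand of chromosome 2, from 160731300 to 160775760. Plcg1 had the fewest UMIs of the 9 genes in the T cell gates, at 43.6, 30.9, 47.0 and 42.7 CPM in CD4 T cells, 38.8, 29.0, 36.5 and 37.1 in CD8 T cells and 40.3, 50.6, 42.3 and 56.8 in gamma-delta T cells (22.8 to 117 for the last, from 7 UMIs). The CD4 range overlapped the CD8 and the gamma-delta range, and every gamma-delta value was above every CD8 value. NK cells had 2, 1, 0 and 0 Plcg1 UMIs, which is 9.04-fold (2.47 to 75.1) and 5.24-fold (0.919 to 209) below CD4 T cells in DPBS WT and DPBS KO, and at least 2.39-fold and at least 3.55-fold below in Papain WT and Papain KO. ILC2 had 2, 4, 12 and 7 UMIs, or 11.7, 27.5, 25.8 and 25.0 CPM. Lcp2, Plcg1, Cd247 and Cd3e overlap other annotated genes on the opposite strand, and how reads there were assigned is not stated.

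The gates were then compared in 1 fit on UMIs summed per gate and library, 16 sums with the library as a block. Within a library the 4 gates come from the same animals, so these tests measure a difference between cell types, averaged over the libraries. The block removes only what all gates of a library share. An effect of genotype or papain in some gates alone would remain in the folds and was not tested. The scaling mattered: totals in place of TMM factors shifted all log2 folds by -0.17 for CD8 against CD4 T, 0.21 for gamma-delta against CD4 T, 0.31 for NK against CD4 T, 0.38 for gamma-delta against CD8 T, 0.48 for NK against CD8 T and 0.10 for NK against gamma-delta T. Calls that depended on it are named.

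For CD8 against CD4 T cells, 5 of the 9 genes were called, where 21.7% of 9882 genes were called in either direction. Lat was lower in CD8 T cells by a log2 fold of -0.33 ± 0.07 (adjusted p = 0.000889), lower in 4 of 4 libraries, and called under all 11 alternatives, with folds from -0.50 to -0.32. Cd247 was lower at -0.25 ± 0.09 (adjusted p = 0.0361) and Lcp2 at -0.28 ± 0.09 (adjusted p = 0.0274), both in 4 of 4 libraries. Cd247 lost the call without any 1 library, with adjusted p from 0.0632 to 0.130, and Lcp2 without Papain WT (-0.22, adjusted p = 0.206) or Papain KO (-0.26, adjusted p = 0.103). Cd3d at 0.29 ± 0.09 (adjusted p = 0.0216) and Lck at 0.24 ± 0.08 (adjusted p = 0.0219) were higher in CD8 T cells and lost the call with totals alone, at 0.12 and 0.07 (adjusted p = 0.312 and 0.538). Cd3d also lost it without DPBS WT (0.24, adjusted p = 0.0610) or Papain WT (0.27, adjusted p = 0.102), and Lck without DPBS WT (0.23, adjusted p = 0.0869), DPBS KO (0.20, adjusted p = 0.121) or Papain WT (0.25, adjusted p = 0.0610). In DESeq2 the calls of Cd3d (adjusted p = 0.204) and Lcp2 (adjusted p = 0.0653) were lost. With no replicate block Cd3d, Cd247, Lck and Lcp2 all lost theirs, and Cd247 lost its call with 2 marker UMIs too. Cd3e, Cd3g, Zap70 and Plcg1 were not called, with adjusted p from 0.125 to 0.889. Of all genes 9.79% were called higher and 11.9% lower, and 5.47% and 26.2% with totals alone.

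Gamma-delta against CD4 T cells gave 2 called genes, with 8.15% of all genes called (3.30% higher and 4.85% lower). Lat was lower, at -0.82 ± 0.10 (adjusted p = 4.21e-07), in 4 of 4 libraries and under every alternative (-0.90 to -0.61). Cd3g was higher, at 0.42 ± 0.13 (adjusted p = 0.0438), also in 4 of 4 libraries, and lost the call without Papain WT (0.37, adjusted p = 0.152) or Papain KO (0.40, adjusted p = 0.169) and in DESeq2 (adjusted p = 0.571). The call was also lost with no replicate block and with 2 marker UMIs. Cd3e was higher in 4 of 4 libraries at 0.27 ± 0.10, without a call (adjusted p = 0.0920), and reached one with totals alone (0.48, adjusted p = 0.000758). Against CD8 T cells, where 6.61% of genes were called (3.01% higher and 3.60% lower), gamma-delta T cells had higher Cd3g (0.46 ± 0.13, adjusted p = 0.0306), lower Lat (-0.50 ± 0.10, adjusted p = 0.000984) and lower Lck (-0.39 ± 0.10, adjusted p = 0.0176). Cd3g lost that call without Papain WT (0.43, adjusted p = 0.101) or Papain KO (0.41, adjusted p = 0.174), and Lck without DPBS KO (-0.36, adjusted p = 0.0948) or Papain WT (-0.34, adjusted p = 0.118). Both also lost it in DESeq2 (adjusted p = 0.577 and 0.0664), with no replicate block and with 2 marker UMIs. Relative log expression factors lost the call of Lck as well (adjusted p = 0.0909). With totals alone the calls of Lat (-0.11, adjusted p = 0.49998) and Lck (-0.01, adjusted p = 0.968) were lost. Cd3e (0.47, adjusted p = 0.000622), Cd247 (0.50, adjusted p = 0.0205), Zap70 (0.66, adjusted p = 0.0183) and Lcp2 (0.70, adjusted p = 0.0150) then gained one. That left 5 of the 9 genes higher and 0 lower, where 9.97% and 1.46% of all genes were.

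In NK against CD4 T cells 7 of the 9 genes were called, all lower, where 13.7% of genes were called lower and 11.3% higher (8.06% and 20.9% with totals alone). Cd3d was lower by a log2 fold of -4.92 ± 0.19, Cd3g by -4.85 ± 0.23, Cd3e by -7.75 ± 0.25 and Plcg1 by -4.07 ± 0.44. Their adjusted p were 1.64e-19, 5.78e-17, 4.04e-21 and 7.56e-09. Cd3e and Plcg1 rest on 3 UMIs each in all NK cells together, and their fitted folds differ from the ratios per library given above. Lat was lower by -3.08 ± 0.12 (adjusted p = 4.69e-19) and Cd247 by -1.29 ± 0.14 (adjusted p = 9.50e-09), each in 4 of 4 libraries and under all 11 alternatives. Lcp2 was at -0.48 ± 0.17 (adjusted p = 0.0345), a call that 7 of the alternatives lost, among them totals alone (-0.17, adjusted p = 0.517) and the fits without DPBS WT (-0.56, adjusted p = 0.0723), Papain WT (-0.45, adjusted p = 0.0995) or Papain KO (-0.43, adjusted p = 0.147). Both kinases were not called: Lck was at -0.04 ± 0.10 (adjusted p = 0.820), turning to 0.27 with totals alone (adjusted p = 0.0314), and Zap70 was at -0.10 ± 0.17 (adjusted p = 0.747). A missed threshold does not show that NK and CD4 T cells hold equal amounts.

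NK cells had 7 of 9 genes called against CD8 T cells (25.8% of all genes) and 6 of 9 against gamma-delta T cells (10.6%, with 5.18% higher and 5.41% lower), and no member was called higher. Against CD8 T cells 12.4% of all genes were higher and 13.4% lower, turning to 30.8% and 6.03% with totals alone. Lat was lower by -2.76 and -2.26 (adjusted p = 1.15e-17 and 1.41e-12) and Cd247 by -1.04 and -1.16 (adjusted p = 7.07e-07 and 1.84e-05). Lck against CD8 T cells was at -0.28 (adjusted p = 0.0280) and turned to 0.20 with totals alone (adjusted p = 0.0939). It lost the call without DPBS WT (-0.25, adjusted p = 0.158) or Papain WT (-0.24, adjusted p = 0.114). The call was also lost in DESeq2 (adjusted p = 0.0502), with relative log expression factors (adjusted p = 0.0801) and with no replicate block. Zap70 against CD8 T cells was at -0.05 (adjusted p = 0.893) and turned to 0.43 with totals alone (adjusted p = 0.0473).

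ILC2 were added to the fit after their levels had been seen, as 20 sums over 5703 genes. Against NK cells 7 of the 9 genes were called, where 31.6% of genes were. Besides Cd3g, Lat was higher in ILC2, at 1.63 ± 0.15 (adjusted p = 2.90e-09), while Lck (-3.08 ± 0.21, adjusted p = 2.18e-11) and Cd247 (-3.60 ± 0.37, adjusted p = 1.93e-08) were lower. Zap70 was not called, at 0.27 ± 0.23 (adjusted p = 0.412). Lcp2 was at 0.69 ± 0.22 (adjusted p = 0.0159), lost with totals alone (0.43, adjusted p = 0.145), without Papain WT (0.65, adjusted p = 0.0875) and without Papain KO (0.69, adjusted p = 0.060). Cd3e and Plcg1 rest on 3 UMIs each in all NK cells together, and Cd3d, not called at -0.92 (adjusted p = 0.237), was called without Papain WT (-2.98, adjusted p = 0.0128). Set against each other, NK cells had more Lck and Cd247, and ILC2 had more Cd3g and Lat. Within NK cells the levels of Cd247 and Lat were not far apart, at 88.3 to 133 and 59.0 to 88.3 CPM.

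**Figure D2:**
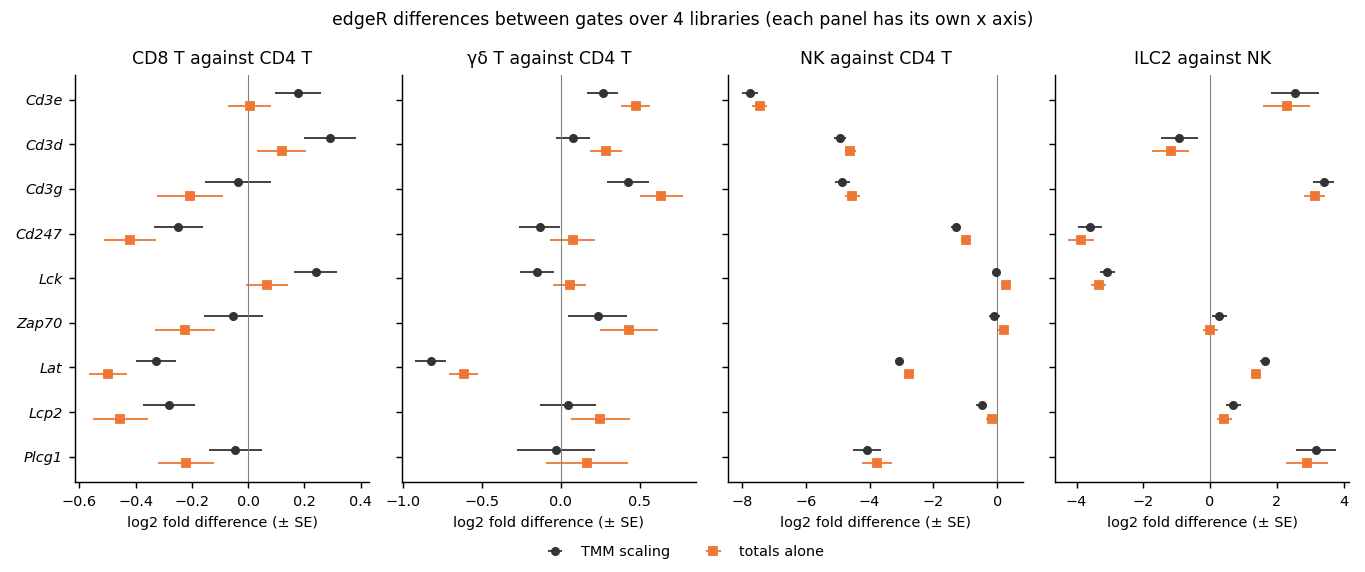
Log2 fold between gates (x axis) for each gene (y axis), fitted with the library as a block, with bars of 1 standard error. Black circles are fits with TMM factors and orange squares fits with totals alone, and each panel has its own x axis. Lat lay below 0 in CD8 T, gamma-delta T and NK cells against CD4 T cells under both scalings, and Lck in NK cells changed side.

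Over the points of gate and library with at least 20 cells, 31 in number, the genes varied together to different degrees. Pearson r of log2(CPM + 10) was 0.973 for Cd3e with Cd3d, 0.962 for Cd247 with Lck, 0.949 for Cd3g with Lat and 0.911 for Zap70 with Lat. Lcp2 stood apart, with r of 0.0653 to 0.237 with the other 8 genes. Of 11782 genes, Themis (0.981) was most like Cd3e, Nsg2 (0.969) most like Cd3d, Camk4 (0.957) most like Cd3g and Cd28 (0.986) most like Cd247. Ifi47 (0.977) was most like Lck, Skap1 (0.975) most like Zap70, Bcl11b (0.966) most like Lat, Ap3s1 (0.885) most like Lcp2 and Camk4 (0.923) most like Plcg1. Points of a library share its depth and its mice, and those of a gate share a cell type, so these are descriptions.

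The CD3 and zeta chain genes were also counted in single cells. All 4 of Cd3e, Cd3d, Cd3g and Cd247 had a UMI in 68.2%, 66.2%, 65.1% and 64.6% of CD4 T cells, in 63.5%, 64.1%, 64.6% and 67.5% of CD8 T cells and in 55.2% to 73.7% of gamma-delta T cells. None of the 4 had a UMI in 48.1%, 33.3%, 37.9% and 46.2% of NK cells. These shares depend on depth: at 2000 UMIs per cell the share of CD4 T cells with all 4 was 19.9%, 14.9%, 15.0% and 11.1%. A Cd3e UMI was seen in 93.7%, 94.4%, 94.2% and 94.5% of CD4 T cells, at median depths of 5551.5 to 6641.5 UMIs, and in 0.805% to 1.26% of B cells. It was seen in 0%, 3.03%, 3.45% and 2.56% of NK cells, and 0 of the 79 in DPBS WT allows a share of cells with a UMI of up to 3.80%, counting 3 cells of the 79.

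KO was compared with WT, and papain with DPBS, within each gate. A gene was counted as past the fold rule when its log2 ratio reached 0.5 in either direction, among genes with at least 100 UMIs over both libraries. In CD4 T cells 0 of the 9 genes passed for KO against WT in DPBS, where 5.38% of genes passed upward and 9.85% downward, and 0 of 9 for KO against WT in papain (1.34% and 12.6%). For papain against DPBS 0 of 9 passed in WT (12.5% and 2.72%) and 0 of 9 in KO (4.54% and 2.23%). CD8 T cells likewise had 0 of 9 in each comparison, where 4.48% and 4.59%, 1.50% and 4.69%, 7.33% and 1.35%, and 3.64% and 1.43% of genes passed. The median log2 ratio of the 9 genes in CD4 T cells was -0.08, -0.05, -0.06 and -0.00 in this order, beside -0.06, -0.12, 0.09 and 0.04 over all genes, and in CD8 T cells -0.11, 0.00, -0.14 and 0.01 beside -0.02, -0.05, 0.08 and 0.03. Each library enters 2 of these comparisons, so the comparisons are not independent of one another.

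**Figure D3:**
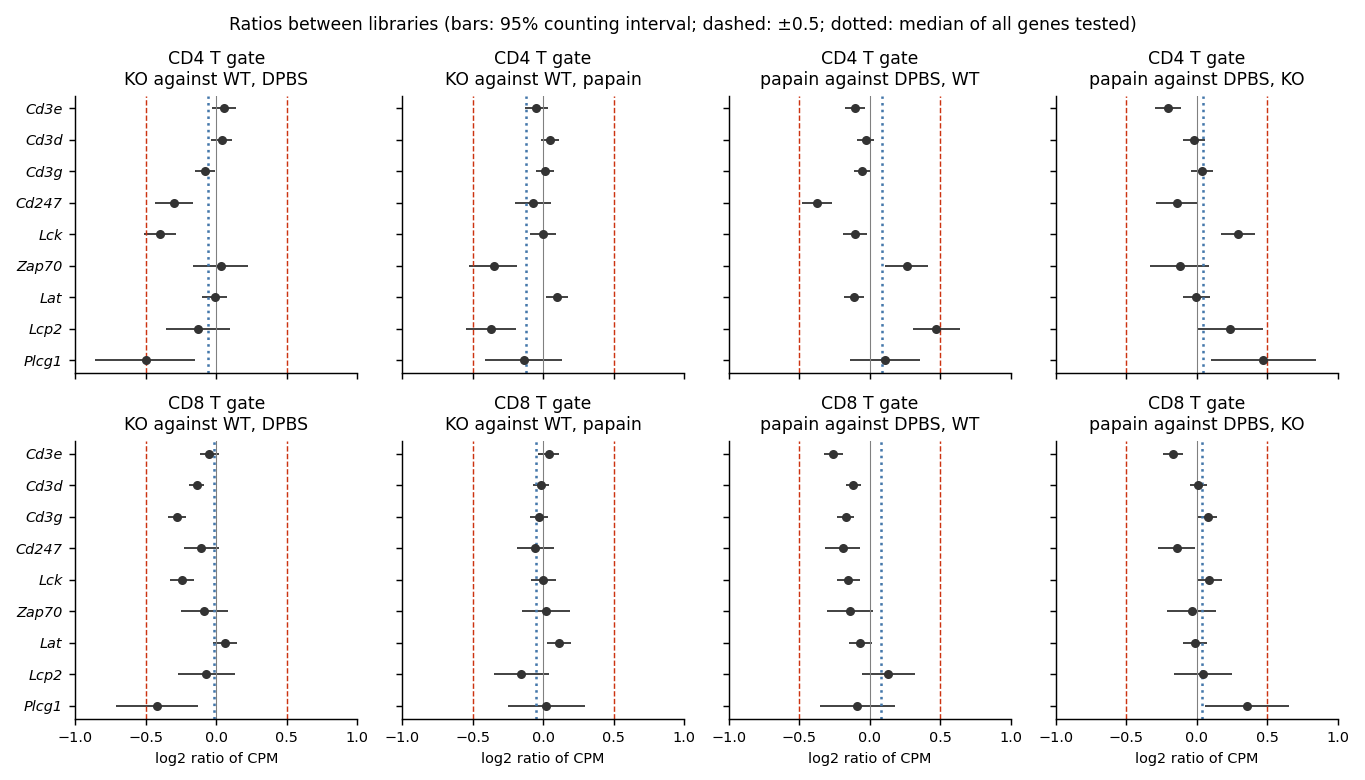
Log2 ratio between libraries (x axis) of each gene (y axis) in CD4 T and CD8 T cells for the 4 comparisons, with bars for 95% counting intervals, dashed lines at 0.5 and -0.5 and a dotted line at the median of all genes. All points lay between the lines, the lowest being Plcg1 for KO against WT in DPBS at -0.50 and the highest Plcg1 for papain against DPBS in KO and Lcp2 in WT, both at 0.47.

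The CD3 chain genes differed little between libraries. In CD4 T cells, KO against WT gave log2 ratios in DPBS of 0.05 for Cd3e, 0.04 for Cd3d and -0.08 (-0.15 to -0.01) for Cd3g, and in papain the same genes lay between -0.05 and 0.05. Cd3e was lower after papain in both genotypes, at -0.10 (-0.17 to -0.03) in WT and -0.20 (-0.29 to -0.11) in KO, and in CD8 T cells at -0.26 (-0.33 to -0.19) and -0.17. Cd3g in CD8 T cells was lower in KO in DPBS, at -0.28 (-0.34 to -0.22). Cd247 in CD4 T cells was highest in DPBS WT, with -0.30 (-0.44 to -0.17) for KO against WT in DPBS, -0.37 (-0.48 to -0.27) for papain against DPBS in WT and -0.07 for KO against WT in papain. None of these reached the fold rule.

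Lck and Plcg1 were lowest in DPBS KO in both CD4 and CD8 T cells. For KO against WT in DPBS, Lck was at -0.40 (-0.51 to -0.28) in CD4 T cells and -0.24 (-0.33 to -0.16) in CD8 T cells, and Plcg1 at -0.50 (-0.86 to -0.15) and -0.42 (-0.71 to -0.13). In papain the same ratios were -0.00 for Lck and -0.14 for Plcg1 in CD4 T cells. Plcg1 in CD4 T cells in DPBS was just inside the fold rule, at 96 and 231 UMIs, and passed it under 5 of the alternatives, with -0.66 to -0.51. From DPBS to papain in KO, Lck in CD4 T cells was at 0.29 (0.17 to 0.41) and Plcg1 at 0.47 (0.10 to 0.84), and Plcg1 passed the rule under 3 of the alternatives, with 0.52 to 0.71. In CD8 T cells Plcg1 was at 0.35 from DPBS to papain in KO and passed the rule at 0.50 without dividing cells.

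Zap70 and Lcp2 were highest in Papain WT among CD4 T cells. For papain against DPBS in WT, Lcp2 was at 0.47 (0.30 to 0.64) and Zap70 at 0.26 (0.11 to 0.41), and Lcp2 passed the fold rule at 0.59 with 2 marker UMIs. For KO against WT in papain, Lcp2 was at -0.37 (-0.54 to -0.19) and Zap70 at -0.35 (-0.52 to -0.18), while Lat was at 0.10 (0.02 to 0.17). In CD8 T cells the intervals of Zap70 and Lcp2 held 0 in both comparisons of KO with WT. Dividing cells made up 11.2%, 8.60%, 16.5% and 11.8% of CD4 T cells in library order. Without them Lcp2 was at 0.40 and Zap70 at 0.21 for papain against DPBS in WT, and at -0.38 and -0.26 for KO against WT in papain.

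In gamma-delta T cells only 4 or 5 of the 9 genes had enough UMIs. Lck passed the fold rule upward for KO against WT in papain, at 0.55 (0.01 to 1.09) from 56 and 66 UMIs, where 4.30% of genes passed upward and 6.33% downward, and for papain against DPBS in KO, at 0.52 (-0.05 to 1.10), where 7.45% and 7.14% did. No member passed for KO against WT in DPBS (10.4% and 7.67% of genes) or for papain against DPBS in WT (9.44% and 4.49%). Both intervals are wide. In NK cells only Lck could be counted, with ratios of -0.10, 0.29, -0.26 and 0.13, none past the rule. Of all genes in NK cells, 7.30% passed upward and 7.30% downward for KO against WT in DPBS, 4.92% and 6.06% in papain, and 7.70% and 6.42% for papain against DPBS in WT and 6.74% and 7.83% in KO. Zap70 in NK cells of DPBS KO, at 9 UMIs against 64 in DPBS WT, had a log2 ratio of -1.54 (-2.74 to -0.53) and was under the UMI minimum. Also under it in that comparison, NK cells had Cd3g at 3.13 (1.65 to 4.92) and Cd3d at 2.02 (0.42 to 3.77), and gamma-delta T cells had Lcp2 at 1.08 (0.10 to 2.13) and Cd247 at 0.90 (0.22 to 1.60).

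The rest of the pathway was examined in 55 further genes: kinases and phosphatases, adaptors, negative regulators, the calcium and NFAT arm, the Ras and NF-kB arm, and early response genes. Between gates 54 could be tested. In NK against CD4 T cells 14 were higher and 19 lower (11.3% and 13.7% of all genes), or 18 and 14 with totals alone (20.9% and 8.06%). Cd5 and Cd6, inhibitory receptors of T cells, and the adaptors Themis, Trat1 and Sit1 had 0 to 2 UMIs each in all NK cells. Txk, a kinase of the Tec family, was higher at 0.97 ± 0.12. Grap2 (Gads), the adaptor that holds SLP-76 to Lat, was lower at -2.34 ± 0.18, and Ptprc (CD45), the phosphatase that activates Lck, was higher at 1.01 ± 0.09. Each of these 3 kept its side with totals alone. CD8 against CD4 T cells gave 9 higher and 15 lower (9.79% and 11.9% of all genes), or 5 and 25 with totals alone (5.47% and 26.2%), led by Myc (1.06 ± 0.10) and Trat1 (-1.95 ± 0.10). Gamma-delta against CD4 T cells gave 3 higher (Lax1, Ptpn22, Sla2) and 9 lower (3.30% and 4.85% of all genes), or 7 and 7 with totals alone (5.56% and 2.46%), with Cd6 at -1.67 ± 0.20 and Cd5 at -1.64 ± 0.21.

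Between libraries some of the downstream genes passed the fold rule. In CD4 T cells, papain against DPBS in WT put 16 of the 53 counted pathway genes past the fold rule upward and 0 downward, where 12.5% and 2.72% of all genes passed. They included 5 of 10 calcium and NFAT genes and 5 of 7 early response genes, whose group medians were 0.48 and 0.75 beside 0.09 over all genes. Nr4a3, an orphan receptor induced within hours of receptor stimulation, was at 34.5 CPM in DPBS WT and 96.0 in Papain WT, a log2 ratio of 1.48 (1.24 to 1.72). Irf4, a transcription factor induced in proportion to receptor signal, was at 1.36 (0.95 to 1.78), and Sla (SLAP), which promotes loss of the receptor from the surface, at 1.06 (0.89 to 1.22). In KO the same comparison gave 3 of 50 upward and 1 downward, where 4.54% and 2.23% of all genes passed. Upward were Irf4 at 0.56 (-0.04 to 1.19), Nck1 at 0.54 (0.10 to 0.99) and Lax1 at 0.52 (0.01 to 1.04). Downward was Sla2 at -0.56 (-0.92 to -0.20), and the interval of Irf4 held 0.

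KO against WT in papain put 0 of 52 pathway genes past the rule upward and 12 downward in CD4 T cells (1.34% and 12.6% of all genes). Sla was at -0.92 (-1.11 to -0.75), Irf4 at -0.88 (-1.29 to -0.48) and Ubash3b, a phosphatase that opposes Zap70, at -0.87 (-1.18 to -0.57). Papain WT is the reference here and the compared library above, so both rest on it. In DPBS, KO against WT gave 5 of 51 upward and 2 downward (5.38% and 9.85% of all genes). Nr4a3 was at 1.17 (0.88 to 1.45) and Orai1, the calcium channel, at 0.76 (0.58 to 0.95), with Nck1 at -0.58 and Csk, the kinase that restrains Lck, at -0.51. In B cells, where the driver should be silent, Nr4a3 was also higher for KO against WT in DPBS (0.52) and for papain against DPBS in WT (1.04), and Sla was at 0.68 and 0.56, whereas Orai1 was at 0.15 and -0.03. The part of these library-wide differences in the T cell values was not tested.

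**Figure D4:**
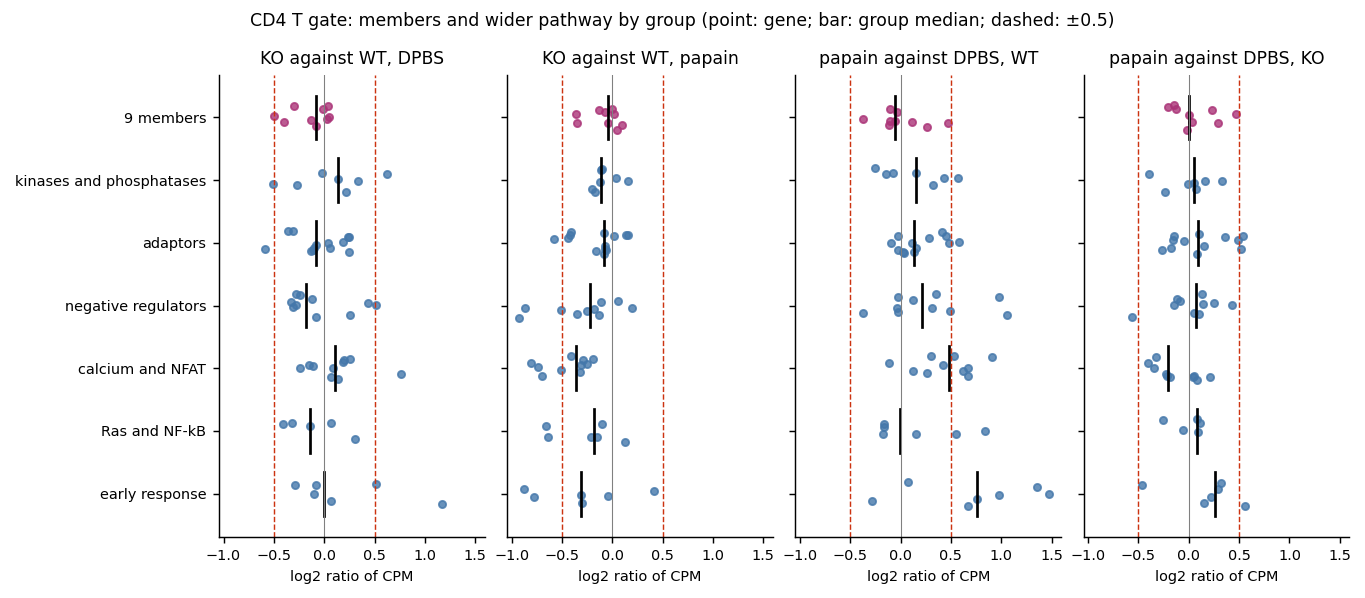
Log2 ratio between libraries (x axis) of the pathway genes by group (y axis, the 9 genes on top) in CD4 T cells for the 4 comparisons, each point a gene and each bar a group median, with dashed lines at 0.5 and -0.5. For papain against DPBS in WT, 16 of the 53 further genes lay beyond the line at 0.5.

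In CD8 T cells KO against WT gave 3 pathway genes upward and 4 downward of 51 in DPBS (4.48% and 4.59% of all genes) and 0 and 4 in papain (1.50% and 4.69%). Papain against DPBS gave 5 and 0 in WT (7.33% and 1.35%) and 0 and 0 in KO (3.64% and 1.43%). Nr4a3 was at 1.02 (0.78 to 1.26) and Orai1 at 0.75 for KO against WT in DPBS, with Ptpn6 (SHP-1, an inhibitory phosphatase) at -0.62. For papain against DPBS in WT, Nr4a3 was at 0.84, Malt1 at 0.77 and Nfatc3 at 0.57. The median over the pathway genes was -0.06, -0.13, 0.19 and 0.08 in CD8 T cells and -0.02, -0.20, 0.28 and 0.06 in CD4 T cells, in the order KO against WT in DPBS and in papain, then papain against DPBS in WT and in KO.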

How the data were processed

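Counts were analysed for 4 sorted lung cell libraries, 1 per group. The deposited matrices hold raw UMI counts per gene and barcode, which the authors made from 10x Genomics 3′ v3 libraries with Cell Ranger on mm10, per the submitters' processing notes, and the file headers name software version 3.1.0. The annotation release, how cells were called and whether doublets had been removed are not given in the sources used here. Groups came from the genotype and treatment labels.

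Barcodes with more than 200 genes and under 15% mitochondrial UMIs were kept. The top Scrublet scores of each library (scanpy 1.11.5) were removed as doublets at 0.8% per 1000 barcodes, 275 to 585 barcodes. The lymphoid gates allowed at most 1 UMI over 7 genes of other lineages. Levels are counts per 1000000 UMIs of the gate (CPM), with exact Poisson intervals (Clopper-Pearson for shares) and exact conditional binomial intervals for ratios, computed in Python 3.11.15 with scipy 1.17.1. No test was run between groups of 1 library. Gates were compared with edgeR 4.0.16 in R 4.3.3 (quasi-likelihood test, TMM, filterByExpr, library as a block, Benjamini-Hochberg adjustment over all genes tested, threshold 0.05). The fit was tested on simulated data. Pathway genes named are the 3 highest and 3 lowest past the fold rule in each comparison of CD4 T or CD8 T cells, and some of these are not reported here. Those named between gates were chosen after their values were seen.

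The members, lists and tests were chosen with earlier results of these data known. Alternatives were 2 marker UMIs, Trac alone, no UMI of other lineages, another NK rule, doublets kept, a 10% mitochondrial limit, TMM factors, a mean over cells, and dividing or Foxp3 cells left out for ratios between libraries. For gates they were relative log expression factors, DESeq2 1.42.0, no filter, no replicate block, each library left out, 2 marker UMIs and doublets kept. Totals alone and the ILC2 gate were added after seeing the data.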

Additional observations from a re-analysis of the deposited data

Results flagged for a closer look

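A pair of ratios stood out because they lay on opposite sides of 0 for papain against DPBS in WT and in KO. Lck in CD4 T cells had a log2 ratio of papain to DPBS of -0.11 in WT (-0.19 to -0.02) and 0.29 in KO (0.17 to 0.41), and DPBS KO was the lowest of the 4 libraries. Cd3g in CD8 T cells had -0.17 in WT and 0.0770 in KO, with DPBS WT the highest and DPBS KO the lowest library. With 1 library per group the difference between genotypes was not tested in either case.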

How the results depend on the processing

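The gates with few cells limit the depth most: in gamma-delta T and NK cells 4 to 8 of the 9 genes stayed under 100 UMIs over 2 libraries. The median ratio of the 9 genes between libraries was set against a band from the median lower to the median upper counting limit of these genes. This band is as wide as that of a typical single gene, so staying within it is a weak check. The median stayed within it in 127 of 128 repeats. The median left it for papain against DPBS in WT in CD4 T cells, from -0.06 to -0.14 with TMM factors. In NK cells, where the intervals are wide, the other NK rule turned its sign in all 4 comparisons, from 0.05 to -0.24 and 0.25 to -0.17 for KO against WT in DPBS and in papain, and from -0.25 to 0.29 and -0.30 to 0.20 for papain against DPBS in WT and in KO. Medians near 0 changed sign in other gates too. Over the alternatives the medians ranged from -0.16 to 0.05 in CD4 T, -0.23 to 0.07 in CD8 T, -0.03 to 0.33 in gamma-delta T and -0.41 to 0.38 in NK cells. For CD8 against CD4 T cells, 2147 genes were called with the library as a block, 1411 with no replicate block, and 1486 to 1876 without 1 library. For gamma-delta against CD8 T cells the count was 653, then 425 to 545 without 1 library (425 without DPBS KO) and 1129 with totals alone. Leaving out the block gave 611 genes for gamma-delta against CD4 T cells, 2162 for NK against CD4 T cells, 477 for gamma-delta against CD8 T cells, 2261 for NK against CD8 T cells and 881 for NK against gamma-delta T cells. The pairing is by construction, since the gates compared come from the same library and animals. Without 1 library the counts were 600 to 645 for gamma-delta against CD4 T, 1776 to 2243 for NK against CD4 T, 1812 to 2235 for NK against CD8 T and 783 to 824 for NK against gamma-delta T cells. Totals alone turned the direction of Lck in NK against CD4 T cells (0.27) and of Lck (0.20) and Zap70 (0.43) in NK against CD8 T cells. The cause was not tested, other than that totals shift every gene of a comparison alike. Of the folds of the 9 genes between gates, 617 stayed on their side of the threshold, 57 lost a call, 7 gained one and 3 turned.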

Other observations

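The receptor adaptors and kinases that other leukocytes use in place of the T cell set mirrored the gates. Fcer1g, the Fc receptor gamma chain, had a median over libraries of 2423 CPM in NK cells, 1999 in alveolar macrophages and 1860 in neutrophils, against 20.04 in CD4 T cells, and Tyrobp was at 2965, 2059 and 6767 against 32.5. Syk, the relative of Zap70, was at 357 in B cells, 251 in macrophages, 523 in neutrophils and 68.6 in NK cells, against 5.18 in CD4 T cells. Plcg2, the relative of Plcg1, was at 50.4 in NK cells and 2.56 in CD4 T cells, and Lat2, the relative of Lat, at 157 and 3.09. Of the 8 such genes that could be tested in NK against CD4 T cells, 7 were higher and 0 lower (edgeR quasi-likelihood test, Benjamini-Hochberg adjusted), with TMM factors as with totals alone. Of all genes 11.3% were higher and 13.7% lower, or 20.9% and 8.06% with totals alone. Among them were Fcer1g, at 6.59 ± 0.20 on the log2 scale (adjusted p = 3.21e-22), Lat2, at 5.37 ± 0.29, and Plcg2, at 3.92 ± 0.37.

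Gamma-delta T cells held part of this set. Fcer1g was at 44.3 to 306 CPM over the 4 libraries, against 13.4 to 28.6 in CD4 T cells, and was higher by 3.13 ± 0.29 on the log2 scale. Syk had 6 UMIs in all gamma-delta T cells together and was not called. ILC2 lacked both sets in part, with a median of 19.1 for Fcer1g, 15.7 for Tyrobp and 5.07 for Syk beside their Zap70 of 114 to 164.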
